A study of Mus musculus with 3 samples.

Results

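The cells described here are the endothelial cells, the cells that line blood vessels, found among dissociated otic vesicles of mouse embryos. A barcode was taken as endothelial when it had at least 1000 detected genes and at most 10% of its unique molecular identifiers (UMIs, each 1 captured transcript) from mitochondrial genes, when at least 3 of the 6 endothelial genes Cdh5, Pecam1, Kdr, Cldn5, Emcn and Tek had a UMI, and when the epithelial gene Epcam had none. This gave 643 barcodes out of 26130 that passed the depth and mitochondrial limits and 37301 deposited. They came from 1 library of CD embryos, which carry Sox9 Y440X on 1 allele and a wild-type Sox9 on the other, and from 2 libraries of wild-type (WT) embryos. All embryos were at E10.5, and several vesicles were pooled per library before droplet-based 3' sequencing. The mutant Sox9 is present in every cell of the CD embryos, and the labels name no strain or litter. The labels name the otic vesicle as the tissue and no vessel, so where a cell sat relative to the vesicle cannot be read from the data.

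The endothelium of the early embryo is divided early into arteries and veins. VEGF acting through KDR turns on Notch signalling in future arterial cells, which then carry the ligand ephrin-B2, the Notch ligand DLL4 and the gap junction proteins connexin 37 (Gja4) and connexin 40 (Gja5). Venous cells carry the receptor EphB4 and the nuclear receptor COUP-TFII (Nr2f2), which holds Notch signalling down, together with neuropilin-2 (Nrp2) and the apelin receptor (Aplnr). Capillaries between them mix both programmes and, where they enter neural tissue, take on Wnt-dependent barrier genes such as the glucose transporter Slc2a1.

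The members numbered 194 in the CD library, 216 in WT replicate 1 and 233 in WT replicate 2. Their share of barcodes was 2.27% in CD (exact 95% interval 1.96 to 2.61), 3.29% in WT replicate 1 (2.87 to 3.75) and 2.11% in WT replicate 2 (1.85 to 2.40). The CD share therefore lay between the WT shares, but at stricter limits of 2000 genes and 5% mitochondrial UMIs it was 1.75%, below both WT shares of 3.39% and 1.94%. These intervals cover counting error only, and the dissection can set how much surrounding tissue came along. Members had a median of 20504 UMIs in CD, 21753.5 in WT replicate 1 and 16989 in WT replicate 2, and summed to 4846288, 5773986 and 5194902 UMIs in the same order. All 6 genes had a UMI in 154 CD members, 152 of WT replicate 1 and 158 of WT replicate 2. The members just inside the threshold, with exactly 3 of the genes, numbered 2, 5 and 10 and had median depths of 12068.5, 3775 and 3632.5 UMIs in that order of libraries. Barcodes just outside, with 2 of the genes and no Epcam, numbered 28, 25 and 37, with median depths of 24353, 22142 and 14232 UMIs. A further 55, 61 and 82 barcodes had at least 3 of the genes but also Epcam and were left out, and Epcam was a single UMI in 34, 35 and 37 of these.

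The endothelial label was checked against genes that the rule did not use. In the members of each library, 2611 genes had at least 50 CPM (UMI counts of a gene scaled to a total of 1000000). Of these, 117 had a level more than 3 log2 units above that of all other barcodes in every library. Both counts include genes of the rule. As a description of the chosen cells, with no test, the highest ratios besides the 6 genes belonged to Myct1, Gimap4, Sox17, Aplnr, Icam2, Esam, Pcdh12, Mmrn1, Tie1, Ctla2a, Clec1b, Cd93, She, Pdgfb and Ptprb. Myct1 had 90.8 CPM in CD members, 77.4 in WT replicate 1 and 73.7 in WT replicate 2, against 0.730, 0.878 and 0.987 CPM in the other barcodes of the same libraries. Esam, an adhesion molecule of endothelial junctions, had 284 CPM in CD members and 300.1 and 318 CPM in WT members, against at most 4.52 CPM elsewhere. Tie1, a receptor of the angiopoietin pathway, had 137 CPM in CD members and 124 and 126 CPM in WT members.

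RNA of other cell types was present and differed between the libraries. The 9 erythroid markers summed to 9947 CPM in CD members, 4196 in WT replicate 1 and 1806 in WT replicate 2, although only 2, 1 and 2 members held over 1% haemoglobin UMIs. The 10 macrophage markers summed to 10.1 CPM in CD members against 87.6 and 76.0 CPM in WT members, and 2, 7 and 8 members had at least 2 of these markers. The 12 mesenchyme markers summed to 124 CPM in CD members and 72.9 and 146 CPM in WT members, and the 8 neuron markers to 163 CPM in CD and, in WT, 108 and 170 CPM. The 14 otic epithelium markers, with Epcam at 0 by the rule, summed to 21.0 CPM in CD, with 22.5 and 66.8 CPM in WT. Scrublet, a doublet caller, marked 12, 6 and 10 members, and these were kept. The mitochondrial share had a median of 4.64% in CD members, 2.88% in WT replicate 1 and 4.10% in WT replicate 2. No member barcode was shared between libraries.

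The targeted gene Sox9 had 23.3 CPM in CD members, against 9.17 and 21.6 CPM in WT replicates 1 and 2. The WT libraries differed from each other by more than CD differed from the nearer of them. Sox9 UMIs lay in 49 CD members and in 25 and 52 WT members. The 5 highest members held 37.2% of them in CD, and 62.3% and 51.4% in WT. A count from the 3' end cannot tell the Y440X allele from the wild-type one, so it does not check the genotype.

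Arterial and venous genes were first placed by their level in the members. The 4 genes below were the 2 arterial and the 2 venous genes of at least 5 CPM with the smallest unadjusted p between genotypes, and the 250 bases upstream of the transcription start are printed for each so that the genes can be compared at the sequence level. Sequences are from RefSeq on build GRCm38.p6, run 5′ to 3′ along the gene's strand, and end at the base before the start. Gja4 lies at chr4:127314040-127314289 (minus strand), Unc5b at chr10:60831582-60831831 (minus strand), Nrp2 at chr1:62703067-62703316 (plus strand) and Nr2f2 at chr7:70366747-70366996 (minus strand). Capitals mark a match to the SOX core letters ACAAT on either strand.
Gja4: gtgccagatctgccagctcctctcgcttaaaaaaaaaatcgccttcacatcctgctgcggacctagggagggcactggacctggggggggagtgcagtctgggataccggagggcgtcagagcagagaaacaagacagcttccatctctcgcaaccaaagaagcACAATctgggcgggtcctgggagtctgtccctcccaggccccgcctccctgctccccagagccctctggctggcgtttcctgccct
Unc5b: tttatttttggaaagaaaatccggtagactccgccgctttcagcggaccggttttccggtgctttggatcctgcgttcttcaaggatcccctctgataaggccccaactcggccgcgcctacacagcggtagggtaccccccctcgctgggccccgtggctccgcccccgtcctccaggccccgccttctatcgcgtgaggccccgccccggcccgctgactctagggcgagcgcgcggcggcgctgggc
Nrp2: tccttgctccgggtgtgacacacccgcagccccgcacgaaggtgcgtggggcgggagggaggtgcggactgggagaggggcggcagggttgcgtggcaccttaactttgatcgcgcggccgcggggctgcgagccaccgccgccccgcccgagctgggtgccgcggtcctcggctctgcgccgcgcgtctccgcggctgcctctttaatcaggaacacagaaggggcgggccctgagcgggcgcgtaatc
Nr2f2: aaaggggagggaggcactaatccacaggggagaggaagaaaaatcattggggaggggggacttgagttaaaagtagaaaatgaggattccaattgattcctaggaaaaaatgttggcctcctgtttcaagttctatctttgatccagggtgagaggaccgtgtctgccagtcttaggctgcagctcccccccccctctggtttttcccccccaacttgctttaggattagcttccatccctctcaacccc
The Gja4 stretch held 1 SOX match, and the other stretches held 0 matches to any of the motifs searched. The motifs were ACAAT for SOX proteins, CAGGAAG for ETS factors, TGGGAA for the Notch effector RBPJ and AGGTCA for COUP-TF factors, each read on both strands, and none of them contains another. Among 27025 promoters of the same length, 28.3% held the SOX letters, 10.52% the ETS letters, 21.5% the RBPJ letters and 13.8% the COUP-TF letters. Of the 17 arterial genes with an entry, 4 held the SOX letters, 2 the ETS letters, 3 the RBPJ letters and 1 the COUP-TF letters. Of the 10 venous genes with an entry, 0 held the SOX letters, 3 the ETS letters, 2 the RBPJ letters and 3 the COUP-TF letters. A match describes letters and does not show that a factor binds.

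Counts were summed over the members of each library and tested between CD and WT with edgeR's quasi-likelihood test, with Benjamini-Hochberg adjustment over 11667 genes. From here, a level is in CPM of the scaled sum, a difference is log2 of CD over WT with its standard error (SE), and "rose" or "fell" is written of adjusted p-values under 0.05. There was 1 CD library, so the spread came from the WT pair and from other genes, and p-values speak only for how these samples differ, which may be technical variation. In a sum, fewer cells of a type and less RNA per cell cannot be told apart.

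None of the 18 arterial genes tested passed the threshold in either direction, against 0.137% of all genes. Levels in CD lay below both WT libraries for 11 of the 18, above both for 0 and between them for the other 7. Among all genes tested, 32.1% lay below both and 33.8% above both. The median log2 difference over the arterial list was -0.29, beside 0.00 over all genes. An unadjusted edgeR p under 0.05 was found for 5 of the 18, beside 412 of all 11667 genes tested. The summed level of the 20 arterial genes, before scaling, was 866 CPM in CD members and 1031 and 1015 CPM in WT members. DESeq2 called 0 of these genes as well.

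Connexin 37, the gap junction protein of arterial endothelium encoded by Gja4, had 73.3 CPM in CD members against 130 and 113 CPM in WT members. The CD level lay below both WT levels by more than the WT pair differed. The log2 difference was -0.73 (SE 0.16) and the edgeR adjusted p was 0.208. Over 14 alternative settings it ran between -2.16 and -0.27, all below 0, and 3 of them passed the threshold. It was -2.16 with members limited to at least 2000 genes and 5% mitochondrial UMIs (114 CD, 201 and 158 WT members), -0.27 without members that held markers of other cell types, and -0.42 with every member thinned to 5000 UMIs. Single cells weigh heavily in it: the highest member held 21.3% of the Gja4 UMIs in CD, and 16.3% and 11.7% in the WT libraries.

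Unc5b, a netrin receptor of arterial and tip cells, had 14.6 CPM in CD members against 28.0 and 26.1 CPM in WT members. Its log2 difference was -0.89 (SE 0.24), with an edgeR adjusted p of 0.518, and it ran between -1.98 and -0.27 over the 14 alternatives, of which 1, the stricter cell limits at -1.98, passed the threshold. Igfbp3, a secreted binding protein of insulin-like growth factors, had 87.9 CPM in CD against 114 and 147 CPM in WT, a difference of -0.57 (SE 0.18). It ran between -0.86 and -0.24 over the alternatives, and also passed only at the stricter cell limits, with -0.86. Vegfc, a growth factor for lymphatic and venous vessels, had 10.9 CPM in CD against 17.6 and 18.7 CPM in WT, a difference of -0.73 (SE 0.27). All 3 genes lay below both WT libraries, and none passed the threshold over the full set of members.

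Connexin 40, encoded by Gja5, had 6.59 CPM in CD against 9.51 and 13.4 in WT, from 32, 55 and 69 UMIs, and 1 CD member held 56.2% of the CD count. Hey1, a transcriptional target of Notch, had 25.1 CPM in CD and, in WT, 39.3 and 30.2 CPM. Nrp1, a co-receptor for VEGF and semaphorins, had 136 CPM in CD, with 177 and 151 CPM in WT, and the Notch ligand Jag2 had 15.4 CPM in CD against 18.3 and 21.4 in WT. These also lay below both WT libraries. Ephrin-B2 (Efnb2) had 108 CPM in CD and, in WT, 109 and 93.4 CPM. Dll4 had 21.4 CPM in CD, with 20.1 and 23.9 CPM in WT, Notch1 113 CPM in CD against 106 and 114 in WT, and Acvrl1, a receptor for circulating BMPs, 64.4 CPM in CD and, in WT, 66.4 and 60.3 CPM. Sox17, a SOX factor of arterial cells, had 86.0 CPM in CD, with 91.3 and 87.6 CPM in WT, and so also lay below both. The differences of these 5 genes were between -0.06 and 0.09, each smaller than its SE. Notch4, Mecom and Jag1 had differences of -0.16, -0.22 and 0.01. Hey2 and Cxcr4 were tested from few UMIs (6, 12 and 5, and 11, 27 and 13), and Bmx and Fbln5 were too low to test, at 1 to 6 UMIs in each library.

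None of the 12 venous genes tested passed the threshold either. CD levels lay above both WT libraries for 10 of the 12 and below both for 0, and the list's median log2 difference was 0.33, beside 0.00 over all genes. The shares of all genes above and below both WT libraries are those given for the arterial genes. The unadjusted edgeR p was under 0.05 for 5 of the 12, beside 412 of all 11667 genes tested, and DESeq2 called 0. Summed over the 13 genes, the level was 1046 CPM in CD members and 776 and 807 CPM in WT members. The same sum was also highest in CD in the other barcodes, at 288 CPM against 234 and 219 CPM in WT. A higher venous sum in CD was therefore not particular to the endothelium.

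Nrp2, the neuropilin of venous and lymphatic endothelium, had 247 CPM in CD members against 168 and 152 CPM in WT members. The CD level exceeded both WT levels by more than the WT pair differed, and the log2 difference was 0.62 (SE 0.14) with an edgeR adjusted p of 0.213. Over the 14 alternatives it ran from 0.55 to 0.74, and 4 of them passed the threshold. No single cell carried it: the highest member held 2.83% of the Nrp2 UMIs in CD, and 3.29% and 4.23% in the WT libraries. Nrp2 was also higher in the rest of the CD library, at 87.3 CPM against 55.5 and 59.3 CPM in the other WT barcodes. The genotype difference in endothelium minus that in the other barcodes was 0.04 (SE 0.14) for Nrp2.

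COUP-TFII, the regulator of venous identity encoded by Nr2f2, had 116 CPM in CD members and 85.6 and 93.4 CPM in WT members, a difference of 0.38 (SE 0.15). Aplnr had 322 CPM in CD against 248 and 267 in WT, a difference of 0.33 (SE 0.14). Dab2, an endocytic adaptor, had 74.5 CPM in CD and, in WT, 58.5 and 52.9 CPM, a difference of 0.42 (SE 0.17). Each lay above both WT libraries, with an edgeR adjusted p of 0.999. The scavenger receptors followed the same order. Stab1 had 113 CPM in CD, with 74.9 and 104 CPM in WT, and Stab2 had 9.06 CPM in CD against 4.84 and 5.64 in WT. EphB4 (Ephb4) had 45.7 CPM in CD and, in WT, 37.7 and 37.2 CPM, and Flt4, the receptor of VEGF-C, 92.4 CPM in CD, with 75.4 and 81.2 CPM in WT. Lyve1, a hyaluronan receptor, was counted 16 times in CD members and 4 times in each WT library, but 1 CD member held 11 of the 16. Vwf, von Willebrand factor, lay between the WT levels, from 68 UMIs in CD and 69 and 89 UMIs in WT, and so did Mrc1, which macrophages also express. Selp had 0 UMIs in every library, which allows up to 0.619 CPM in CD and, in WT, 0.520 and 0.577 CPM.

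**Figure D1:**
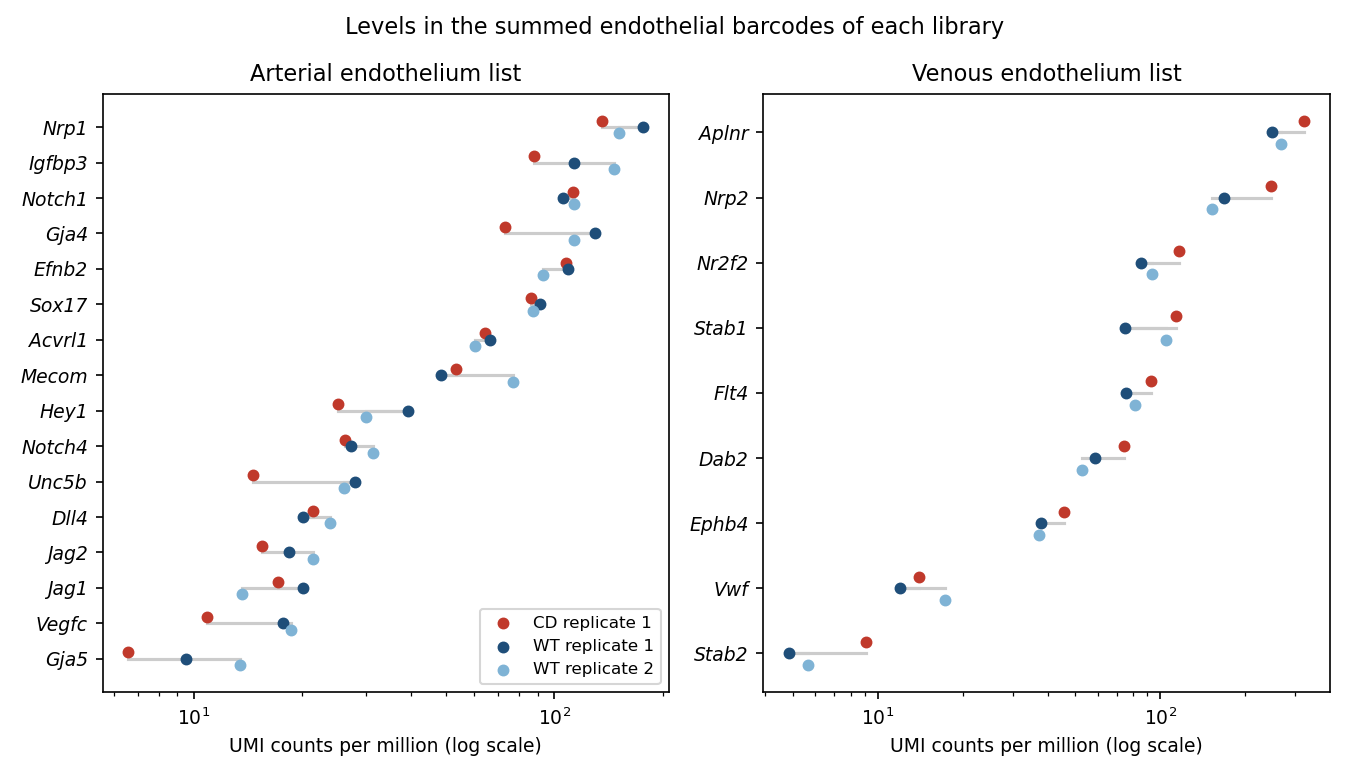
Levels of the 16 arterial and 9 venous genes with a mean of at least 5 CPM in the summed members, on a log axis in CPM, with 1 point per library. For Gja4, Unc5b and Igfbp3 the CD point lies left of both WT points, and for Nrp2, Nr2f2 and Aplnr it lies right of both.

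**Figure D2:**
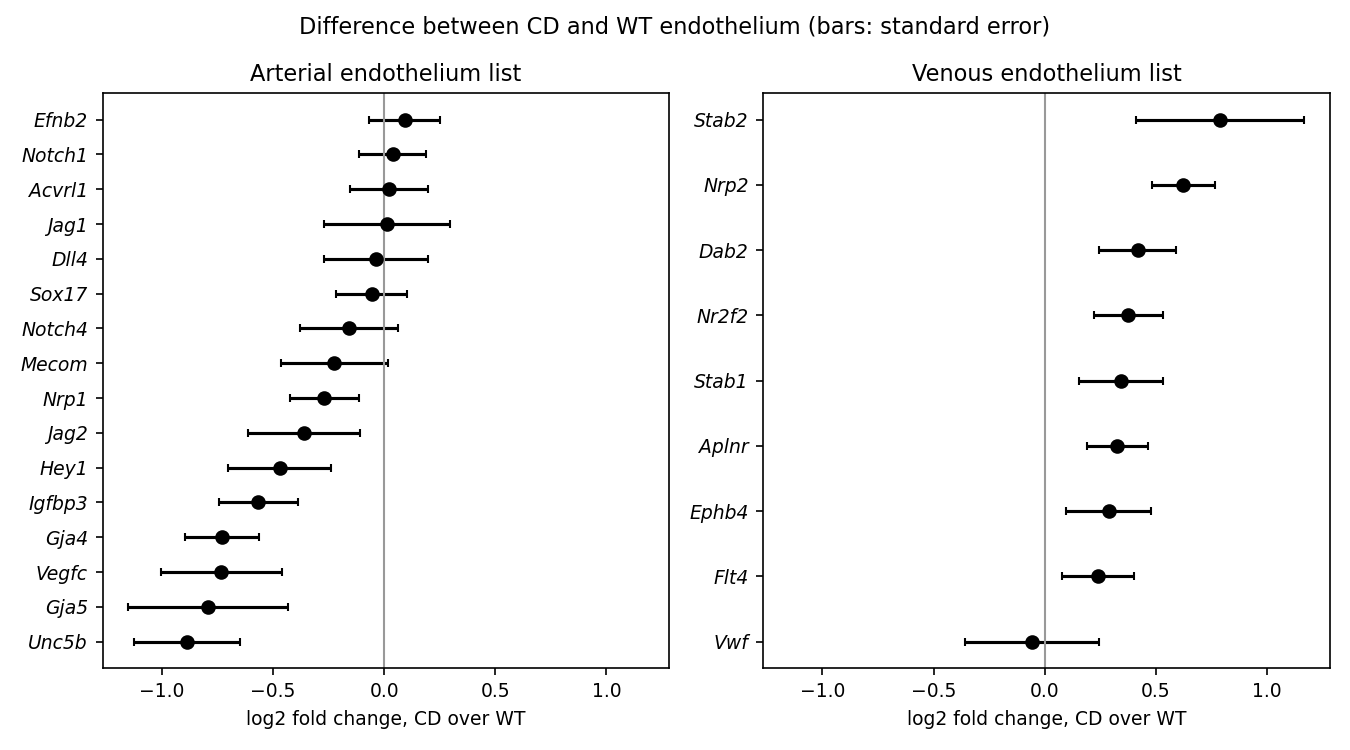
The log2 difference of CD over WT for the same genes, with bars for the standard error derived from the edgeR test statistic. Unc5b at -0.89 lies lowest on the arterial side and Stab2 at 0.79 highest on the venous side, and no gene shown passed the adjusted threshold.

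Mitochondrial and erythroid RNA also differed between the libraries, with the highest sums in CD, and their part in the result was not tested. The other barcodes had the same order of libraries. There the mitochondrial genes summed to 34115 CPM in CD, with 23651 and 31796 CPM in WT, and the erythroid markers to 47961 CPM in CD, with 36397 and 27746 CPM in WT. In the members, 12 of the 13 mitochondrial genes lay above both WT libraries in CD, with a median difference of 0.41. Their summed levels were 46848 CPM in CD, with 29214 and 41500 CPM in WT, so the WT libraries lay further apart than CD lay from the nearer. Without the members of the sub-clusters in which Scrublet marked over 10% (33 CD members, and 29 and 47 WT members), the arterial median was -0.34 and the venous median 0.30.

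The difference between genotypes could also be read as a share of cells with a UMI. Members were thinned to 5000 UMIs each, which left out 3 CD members and 3 and 16 WT members. Gja4 was then detected in 12.0% of CD members, and in 18.8% and 18.4% of WT members. In otic epithelium, taken as barcodes with at least 3 Epcam UMIs and none of the 6 endothelial genes, the same measure was 0.200% in CD and 0% and 0.200% in WT, with 500 cells per library thinned alike. The count of 0 of 500 allows a share of up to 0.6%. Without thinning, Gja4 was seen in 19.1% of CD members and 28.2% and 24.5% of WT members. The median depth before thinning was 19694 UMIs in the CD epithelium and 22565 and 17607 UMIs in the WT epithelium, beside the member depths given above.

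Nrp2 was detected in 67.0% of thinned CD members, and in 46.0% and 41.0% of WT members, against 21.0% of CD epithelium and 7.60% and 12.8% of WT epithelium. Its unthinned shares were 92.8% in CD members and 81.5% and 75.5% in WT members. The exact 95% interval of the thinned CD share, 59.9 to 73.6%, did not reach either WT interval, 39.2 to 53.0% and 34.4 to 47.9%. Those intervals cover counting error within 1 library each. Nr2f2 was detected in 38.7% of CD and 29.1% and 33.6% of WT members, but also in 37.8% of CD and 29.2% and 31.8% of WT epithelium, so its share does not set the endothelium apart. Unc5b at 8.90% in CD and 11.7% and 9.22% in WT members did not exceed its epithelial shares of 15.4% in CD and 11.8% and 12.4% in WT, so its share does not set the endothelium apart either.

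Pairs of arterial and venous genes were also counted within single thinned members, with Scrublet doublets kept. Efnb2 and Ephb4 were found together in 19 of 191 thinned CD members, and in 17 of 213 and 10 of 217 WT members. Ephb4 was detected in 26.4% of Efnb2-positive and 23.5% of Efnb2-negative CD members, in 18.1% and 19.3% in WT replicate 1, and in 14.3% of each in WT replicate 2. Efnb2 alone was detected in 37.7% of CD members and 44.1% and 32.3% of WT members, but also in 36.2% of CD epithelium and 31.6% and 28.0% of WT epithelium. Ephb4 alone was detected in 24.6% of CD members and 18.8% and 14.3% of WT members, against 12.0% of CD epithelium and 10.2% and 8.20% of WT epithelium. With Efnb2 near its epithelial share, these counts do not show whether the ligand and its receptor are made by the same cells. Nr2f2 was detected in 8.70% of Gja4-positive and 42.9% of Gja4-negative CD members, in 12.5% and 32.9% in WT replicate 1 and in 12.5% and 38.4% in WT replicate 2. Nrp2 was detected in 43.5% of the 23 Gja4-positive CD members, and in 10.0% of the 40 Gja4-positive members of each WT library. This count rests on 10 CD members and 4 members in each WT library. Among Gja4-negative members Nrp2 was detected in 70.2% in CD, and in 54.3% and 48.0% in WT, so its share was higher in CD on both sides of Gja4 and higher in Gja4-negative members in each library.

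The members fell into 8 sub-clusters when clustered on their own (Leiden, resolution 0.6, without integration of the libraries). The genes that lead a sub-cluster chose it and are given as a description. Sub-cluster 7, with 48 members, was led by Gja5, Gja4, Tmem100, Unc5b, Prnd and Vegfc, and 17 arterial genes of the list were raised in it, so it was called arterial endothelium-like. Gja4 stood at 1125 CPM in sub-cluster 7, against 142 CPM in sub-cluster 1, 66.4 CPM in sub-cluster 2 and 0 UMIs in sub-cluster 6, which allows up to 2.02 CPM. Igfbp3 had 641 CPM there, Hey1 170 CPM, Efnb2 238 CPM and Nrp1 441 CPM. Sub-cluster 6, with 59 members, was led by Tll1, Adgrg6, Bmp4, Ralgapa2, Stab2 and Vwf, and 8 venous genes were raised in it, so it was called venous endothelium-like. Nrp2 had 383 CPM in sub-cluster 6 and 30.4 CPM in sub-cluster 7, Nr2f2 166 and 21.4 CPM, and Aplnr 370 and 42.9 CPM. Vwf, a venous gene of the list, was as high in the arterial endothelium-like members, at 72.8 CPM in sub-cluster 6 and 75.6 CPM in sub-cluster 7. Emcn, a sialomucin of veins and capillaries, had 1311 CPM in sub-cluster 6 and 509 CPM in sub-cluster 7.

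Between these lay the larger sub-clusters, which no marker list named. Sub-clusters 1 (128 members) and 2 (122) shared the leading genes Foxq1, Vwa1 and Slc7a5, and sub-cluster 2 added Car4 and Apcdd1. Foxq1, a forkhead factor of brain endothelium, had 62.5 CPM in sub-cluster 1 and 57.7 CPM in sub-cluster 2, against 4.36 CPM in sub-cluster 3, 1.38 CPM in sub-cluster 5 and 0.674 CPM in sub-cluster 6. Apcdd1, a Wnt target, had 53.7 and 74.5 CPM in sub-clusters 1 and 2, and 59.8 CPM in sub-cluster 7. Slc2a1, the glucose transporter of barrier endothelium, had 509 and 460 CPM in sub-clusters 1 and 2, 1044 CPM in sub-cluster 7 and 120 CPM in sub-cluster 6. Sub-cluster 3 (110) was led by histone genes, Mki67 and Top2a, which mark dividing cells, and sub-cluster 5 (67) by Kcne3, a potassium channel subunit of endothelial tip cells, at 256 CPM.

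The remaining sub-clusters carried RNA of other cell types. Sub-cluster 4 (70) was led by Mt1 at 426 CPM, a metallothionein, with 7 erythroid markers raised and Hba-x at 15672 CPM. These are sums, and the median haemoglobin share of its members was 0.0647%, beside 0.0627% in sub-cluster 1. Over all members, 1 barcode held 60.9% of the Hba-x UMIs in CD, and 92.5% and 63.3% in WT. Sub-cluster 8 (39) was led by Nefm, Crabp1, Tubb3, Prrx1 and Twist1, genes of neurons and mesenchyme, and Scrublet marked 43.6% of its members as doublets, against 11.4% in sub-cluster 4 and at most 2.08% in any other.

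**Figure D3:**
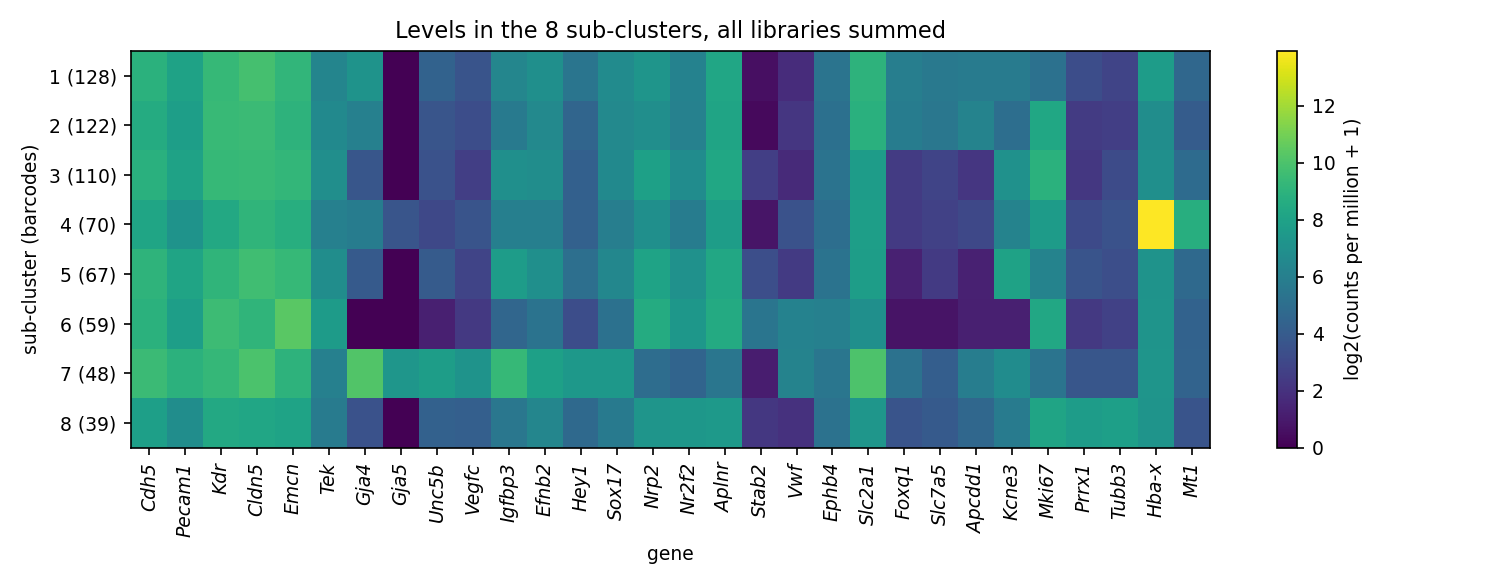
Levels of endothelial, arterial, venous and other genes in the 8 sub-clusters with the libraries summed, coloured by log2(CPM + 1). Sub-cluster 7 is bright for Gja4, Gja5 and Unc5b and dark for Nrp2 and Nr2f2, sub-cluster 6 shows the opposite, and sub-clusters 4 and 8 hold Hba-x or Prrx1 and Tubb3.

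Arterial endothelium-like members made up 5.15% of the members in CD (10 of 194), against 6.48% (14 of 216) and 10.3% (24 of 233) in WT. The exact 95% intervals were 2.50 to 9.28% in CD, and 3.59 to 10.6% and 6.71 to 14.9% in WT, and overlapped. Venous endothelium-like members made up 11.9% in CD (23), against 6.48% (14) and 9.44% (22) in WT, with intervals of 7.67 to 17.3% in CD and 3.59 to 10.6% and 6.01 to 13.9% in WT. These orders depend on the resolution, and CD kept its place at 1.0 but not at 0.3. At resolution 1.0 the sub-cluster led by Gja5 and Gja4 held 2.58% in CD, below 4.17% and 6.01% in WT. The sub-cluster led by Tll1 held 9.79% in CD, and 8.33% and 5.15% in WT. The one led by Adgrg6 held 8.76% in CD, and 2.78% and 7.30% in WT, and both had 8 venous genes raised. At resolution 0.3 the sub-cluster led by Gja4, Unc5b and Hey1 was broader, with 253 members. It held 38.1% in CD, between 33.8% and 45.5% in WT. The one with venous genes raised, led by Mt1 and Tll1, held 18.0% in CD, between 16.7% and 21.9% in WT. No test was made of these shares, since arterial and venous genes that define the sub-clusters are also the genes compared, and there is 1 CD library. Sub-cluster 3 of dividing members held 23.2% in CD, and 17.1% and 12.0% in WT, whereas at resolution 0.3 the sub-cluster led by histone genes and Top2a held 35.6% in CD, between 45.8% and 25.8% in WT. Sub-cluster 2 held 12.9% in CD, and 30.1% and 13.7% in WT, so that CD lay close to WT replicate 2 and the WT libraries lay apart.

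Within the arterial endothelium-like members Gja4 was not lower in CD. Gja4 is a leading gene of this sub-cluster and so helped to choose its members, and the values cannot show whether Gja4 per arterial cell differs. Gja4 there had 1551 CPM in CD from 218 UMIs, and 1344 and 847 CPM in WT from 400 and 380 UMIs. In sub-cluster 1 it had 187 CPM in CD against 140 and 113 in WT, and in sub-cluster 2 it had 16.8 CPM in CD, from 12 UMIs, and 75.4 and 86.8 CPM in WT. Nrp2 in the venous endothelium-like members had 448 CPM in CD and, in WT, 355 and 330 CPM. Nrp2 was also higher in CD than in both WT libraries within sub-cluster 1 (187 CPM in CD, 140 and 141 CPM in WT), sub-cluster 2 (151, and 106 and 119 CPM), sub-cluster 3 (276, and 256 and 151 CPM), sub-cluster 5 (322, and 309 and 204 CPM) and sub-cluster 7 (49.8, and 23.5 and 29.0 CPM). These values have no replicate in CD and were not tested.

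**Figure D4:**
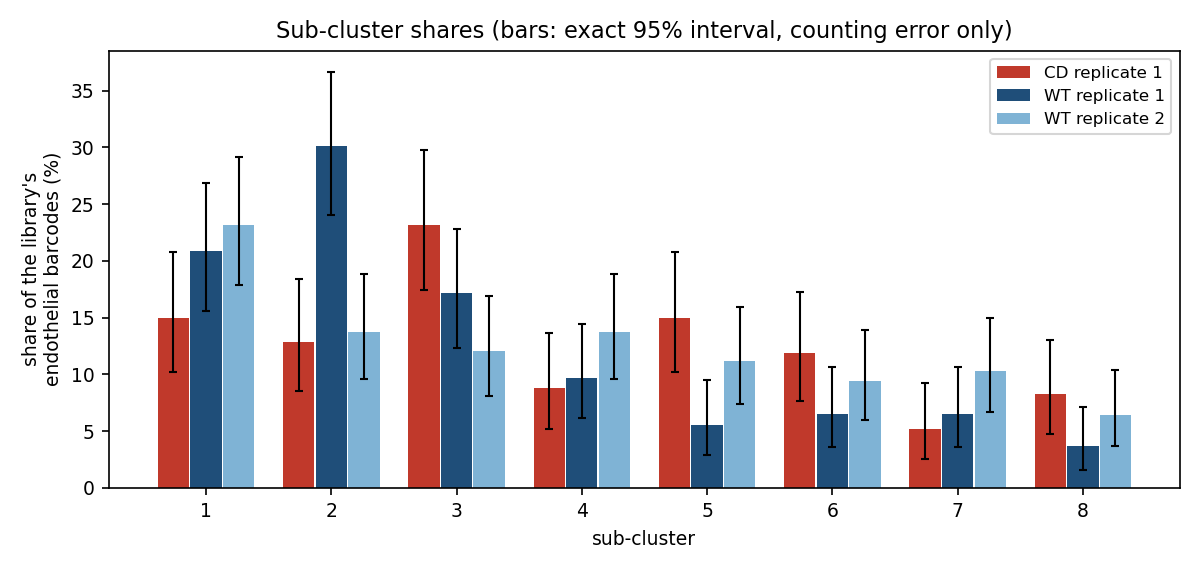
Share of each library's members in the 8 sub-clusters, in percent, with exact 95% intervals that cover counting error only. Arterial endothelium-like sub-cluster 7 stands at 5.15% in CD beside 6.48% and 10.3% in WT, and the intervals overlap.

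Across all genes tested, 5 rose in CD endothelium (0.0429% of 11667) and 11 fell (0.0943%), with 412 at an unadjusted edgeR p under 0.05 and 4 called by DESeq2. None of the 16 is a gene of the arterial or venous list. Of the 5 that rose, 4 encode haemoglobin chains. Hbb-y, an embryonic beta-globin, had 3852 CPM in CD members against 1659 and 871 CPM in WT members, with an edgeR adjusted p of 0.0210, and 1 member held 55.2% of its UMIs in CD, and 90.7% and 69.7% in WT. The other riser was Mt1, a metal-binding protein, at 91.6 CPM in CD against 48.6 and 37.8 CPM in WT, with a difference of 1.08 (SE 0.19) and an edgeR adjusted p of 0.0464. A single member held 42.7% of the Mt1 UMIs in CD, and 38.4% and 39.2% in WT. With the members of over 1% haemoglobin removed, the Mt1 difference was -0.12.

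Of the 11 that fell, 9 are genes of macrophages and other blood cells. Tyrobp, a signalling adaptor of myeloid cells, had 3 UMIs in CD members against 100 and 84 in WT members, with an edgeR adjusted p of 0.00245. C1qb, a complement subunit, had 1 UMI in CD against 85 and 68 in WT, in 1 CD member and in 3 and 5 WT members, with the same edgeR adjusted p. Coro1a, an actin regulator of leukocytes, had 4.94 CPM in CD against 22.1 and 28.6 CPM in WT, a difference of -2.35 (SE 0.32). Fcer1g, an Fc receptor subunit, had 5.76 CPM in CD against 22.3 and 21.0 CPM in WT, a difference of -1.91 (SE 0.30). Spi1, Rac2, Cd52, Lyz2 and C1qc also fell. The other 2 were Nefm, a neurofilament of neurons, and Fabp7, a fatty acid binding protein of neural progenitors and glia. Nefm had 15.7 CPM in CD against 46.2 and 52.5 CPM in WT, but 1 member held 88.8% and 81.5% of its UMIs in the WT libraries, and 30.3% in CD. Fabp7 had 1.85 CPM in CD against 11.8 and 14.2 CPM in WT, with 61.6% of the UMIs of WT replicate 2 in 1 member. With sub-clusters 4 and 8 left out, 0 genes rose and 0 fell in edgeR, with 311 at an unadjusted p under 0.05, and DESeq2 was not run on that subset.

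**Figure D5:**
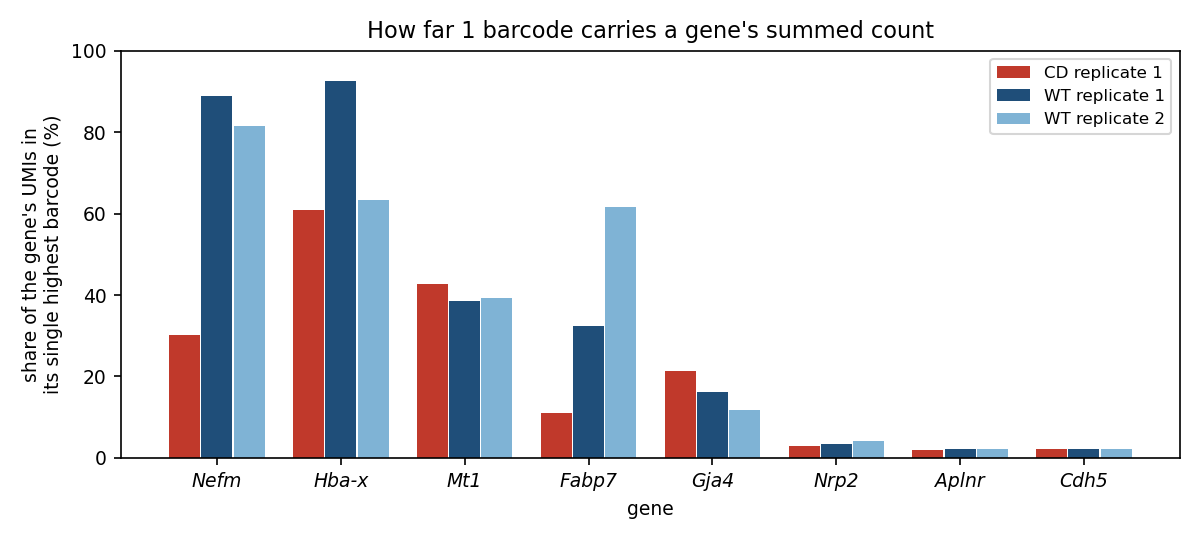
Share of a gene's UMIs that lay in its single highest member, in percent, for each library. Nefm, Hba-x and Mt1 are carried by 1 barcode in at least 1 library (up to 92.5% for Hba-x), whereas Nrp2, Aplnr and Cdh5 stay at or below 4.23%.

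The receptors and regulators that endothelium shares were mostly level. Of the 6 genes that chose the cells, given with no test, Cdh5, the cadherin of endothelial junctions, had 467 CPM in CD, with 444 and 399 CPM in WT. Kdr, the main VEGF receptor, had 638 CPM in CD against 592 and 555 in WT, and Emcn 599 CPM in CD and, in WT, 611 and 583 CPM. Tek, the angiopoietin receptor, had 127 CPM in CD, with 91.8 and 90.3 CPM in WT. None of the 23 endothelial transcription factors tested rose or fell, with 6 above and 8 below both WT libraries, a median of -0.03 and 0 at an unadjusted edgeR p under 0.05. Ets1 had 343 CPM in CD against 358 and 286 in WT, Mef2c 312 CPM in CD and, in WT, 312 and 303 CPM, and Lmo2 283 CPM in CD, with 369 and 301 CPM in WT. Sox7, a SOX factor related to Sox17, had 35.4 CPM in CD against 40.6 and 36.4 in WT. Sox18, the third factor of that subgroup, had 60.7 CPM in CD, which lay between 80.1 and 26.5 CPM in WT. Sox18 was the third largest gap between the WT libraries among 2859 genes with a mean of at least 50 CPM over both of them.

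The other endothelial pathways gave 0 genes past the threshold in edgeR or in DESeq2, and their counts are read against the shares of all genes above and below both WT libraries. The Notch list of 17 genes, which overlaps the arterial list, had 4 above and 6 below both WT libraries and a median of -0.04, with 0 at an unadjusted edgeR p under 0.05. Hes1, a Notch target, had 328 CPM in CD and, in WT, 355 and 291 CPM. Of 7 VEGF ligands and receptors tested, 3 lay above and 3 below, and Flt1, a decoy receptor for VEGF, had 384 CPM in CD, with 347 and 348 CPM in WT. Of 16 genes of BMP and TGF-beta signalling, 4 lay above and 5 below both. Id3, a BMP target, had 514 CPM in CD against 685 and 673 in WT, a difference of -0.40 (SE 0.14), and the inhibitor Smad7 had 23.1 CPM in CD and, in WT, 29.8 and 43.0 CPM. Bmp4 had 18.9 CPM in CD, with 10.55 and 13.4 CPM in WT. Neither list's genes passed the adjusted edgeR threshold.

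The Wnt and neural barrier list of 23 tested genes had 8 above and 9 below both WT libraries and a median of -0.17. Slc2a1 had 271 CPM in CD against 391 and 353 in WT, a difference of -0.46 (SE 0.14) with an edgeR adjusted p of 0.872, while Foxq1 had 25.3 CPM in CD and, in WT, 30.8 and 20.8 CPM. The caveolae and fenestrae list had 0 above and 5 of 8 below both, with a median of -0.23. Plvap, which forms the diaphragms of fenestrae, had 383 CPM in CD, with 442 and 445 CPM in WT, and Cavin3, a coat protein of caveolae, 294 CPM in CD against 341 and 379 in WT. Of 20 junction and adhesion genes 8 lay above and 5 below, with a median of 0.02, and of 9 flow-responsive genes 3 lay above and 4 below. Klf2, which responds to flow, had 194 CPM in CD and, in WT, 197 and 247 CPM. Of 24 matrix genes 4 lay above and 7 below, led by Sparcl1 at 88.3 CPM in CD, with 123 and 135 CPM in WT, a difference of -0.55 (SE 0.16) with an edgeR adjusted p of 0.654.

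Among guidance genes, 7 of 19 lay above and 7 below both WT libraries, and the semaphorin receptor Plxnd1 had 463 CPM in CD against 377 and 368 in WT. Of 14 tip and sprouting genes, 4 lay above and 4 below, with Kcne3 at 73.3 CPM in CD and, in WT, 60.9 and 123 CPM. Prox1, the lymphatic regulator, had 7.41 CPM in CD, with 3.81 and 3.89 CPM in WT, a difference of 0.94 (SE 0.43). The 3 lymphatic genes tested lay above both, but Lyve1 and Flt4 are on the venous list as well. Of 19 cell cycle genes, 8 lay above and 2 below, with a median of 0.09. Cdkn1c, a cell cycle inhibitor, had 366 CPM in CD against 507 and 600 in WT, a difference of -0.60 (SE 0.15) with an edgeR adjusted p of 0.370, and Mki67 had 309 CPM in CD and, in WT, 273 and 211 CPM.

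The genotype difference in endothelium was compared with that in all other barcodes of the same libraries by an interaction test in edgeR, with the library as a block. Counted by sign, 24 of 18434 genes had a higher log2 difference in endothelium than elsewhere (0.13%) and 45 a lower one (0.244%). A lower value can be a stronger negative difference in endothelium, so these counts do not rank its size. The 24 include Cldn5 at 0.45, a gene of the rule, and its value is shaped by the choice of cells. This fit shared 1 spread across genes, with infinite prior degrees of freedom, and DESeq2 called 1 and 5. Unc5b was the one arterial gene called. Its level was 14.6 CPM in CD members and 28.0 and 26.1 CPM in WT members, but 24.1 CPM in the other CD barcodes and 16.9 and 19.5 CPM in the other WT barcodes. The difference between both comparisons was -1.27 (SE 0.24) with an edgeR adjusted p of 0.000102, and in DESeq2 -1.29 with an adjusted p of 1.00. Flt4 was the one venous gene called, at 0.96 (SE 0.21), with an edgeR adjusted p of 0.00148 and a DESeq2 adjusted p of 1.00. Its level in the other barcodes was 1.18 CPM in CD, with 2.32 and 1.57 CPM in WT, and these barcodes include those with the endothelial genes and Epcam. For Gja4 the difference between both comparisons was -0.27 (SE 0.19) and for Nr2f2 0.13 (SE 0.15), and neither was called.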

How the data were processed

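Per the labels' protocols, single cells were captured in droplets with the 10x Chromium 3' kit (chemistry 3.1). Reads were processed with Cell Ranger 6.0 on build mm39, per the submitters' processing notes, and the file headers give version 6.0.0. Deposited values are raw UMI counts for each barcode over 32285 features, to which the authors applied no normalisation, and the annotation release is not given in the sources used here.

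Members were chosen by the rule stated at the opening. The members, gene lists and named genes were chosen with earlier results of these data known. Named genes are the 6 genes of the rule, arterial and venous genes of at least 5 CPM, genes past the threshold, and from each other list the 3 highest and the 1 of smallest p, of which 1 gene is not reported here. Those with larger counts have smaller counting error, so low genes are given with their UMIs.

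Counts were summed per library and tested with edgeR 4.0.16 in R 4.3.3 (TMM, filterByExpr, quasi-likelihood, Benjamini-Hochberg, threshold 0.05), with 1 residual degree of freedom, a median prior of 12.1 and the lone CD library assumed to vary like WT. The SE given with an edgeR difference is its absolute log2 value divided by the square root of the test's F statistic. DESeq2 1.42.0 was an alternative. A test on simulated counts of the CD and WT endothelium over 11365 genes recovered 52% of 2-fold and 94% of 4-fold changes, with 7 false calls. Counts of the WT members differed between both libraries (chi-square of 6.66 per degree of freedom, 12448 genes). Whether the WT vesicles came from different litters is not given in the labels. Clustering used scanpy 1.11.5 and leidenalg 0.10.2 with 1500 variable genes, 20 principal components and 15 neighbours. Shares carry exact (Clopper-Pearson) 95% intervals, and a count of 0 allows up to 3 counts. UMI thinning was to 5000. Alternatives changed the gate, the doublets, the depth, the scaling, the filter and the replicates. Promoter coordinates are on GRCm38.p6, not the build of the files, and were used for sequence only.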

Additional observations from a re-analysis of the deposited data

Results flagged for a closer look

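The genes in this section had a genotype difference in endothelium that was called different from that in the other barcodes by the edgeR interaction test. Values are log2 of CD over WT in endothelium minus the same in the other barcodes. Among vascular genes these were Unc5b at -1.27, Flt4 at 0.962 and Ralgapa2, a gene leading the venous endothelium-like sub-cluster, at 0.922. Pbld1 stood at 1.25. Among genes of macrophages and other blood cells they were C1qb at -6.10, Spi1 at -5.12, C1qc at -4.95, Tyrobp at -4.44, Coro1a at -2.15, Adgrg1 at -1.92 and Fcer1g at -1.82. C1qb, C1qc, Spi1 and Tyrobp had 1 to 3 UMIs in CD members, so the size of their values is uncertain. Among neural genes they were Fabp7 at -2.90, Nefm at -1.54, Tubb3 at 0.720 and Neurod1 at 1.78. DESeq2 called Tyrobp, Coro1a and Nefm of these and none of the others, with adjusted p-values from 0.0649 for Fabp7 up to 1.00. For Tubb3 the 5 highest members held 85.5% of the UMIs in CD, and 80.3% and 65.1% in WT. For Neurod1 they held 85.7% of 98 UMIs in CD, and the WT members had 7 and 51 UMIs. Why the genes of this section differ was not tested.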

How the results depend on the processing

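No paired analysis was possible because CD and WT share 1 replicate number. With 5 genes that rose and 11 that fell in edgeR as reported, the counts were 1 and 3 with DESeq2, 21 and 53 with no gene filter, 12 and 37 without Scrublet doublets, 9 and 43 at 2000 genes and 5% mitochondrial UMIs, 12 and 44 without members over 1% haemoglobin, and 2 and 3 with each member thinned. Both counts were 0 with 2 gate markers, with Epcam not used and without sub-clusters 4 and 8, where 396, 427 and 311 genes had an unadjusted edgeR p under 0.05, and DESeq2 was not run on those members. Genes that rose numbered 3 with RLE scaling and 3 without members holding other types' markers, and genes that fell numbered 3 at equal cells and UMIs and 5 without members holding macrophage markers. DESeq2 gave 1 gene with a higher and 5 with a lower log2 difference in endothelium than elsewhere. The Epcam, haemoglobin, macrophage, thinning and sub-cluster settings were chosen after seeing the data.

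The arterial median of -0.29 was -0.16 without members holding other types' markers, -0.46 at the stricter cell limits, -0.23 with Epcam not used, and -0.31 to -0.21 with either WT replicate left out. The venous median of 0.33 was 0.24 both with 2 gate markers and without members holding other types' markers, 0.26 at equal cells and UMIs, and 0.30 to 0.36 with either WT replicate left out. Both medians kept their sign in each setting run. The CD share was 1.75% at the stricter limits, below both WT shares of 3.39% and 1.94%, and 2.91% with Epcam not used, when the WT shares were 4.22% and 2.86%, and the share of WT replicate 2 was 2.45% with 2 gate markers. Resolution 0.3 gave 4 sub-clusters, and the CD shares of those led by arterial genes, with venous genes raised or led by histone genes then lay between the WT shares. At resolution 1.0 the CD share of the sub-cluster led by Gja5 and Gja4 lay below both WT shares. Those led by Tll1 and by Adgrg6 lay above both.

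Mt1 reversed to -0.71 without Scrublet doublets, -0.92 without members holding other types' markers, -0.12 without haemoglobin-rich members and -0.015 when thinned. Nefm reversed to 0.14 without members holding other types' markers, 0.43 at equal cells and UMIs and 0.10 when thinned. C1qb and C1qc reversed to 0.67 and 0.64 with 2 gate markers. The cause was not tested beyond the shares of single barcodes. With 1 CD library and 1 residual degree of freedom, the test recovered 52% of 2-fold changes in counts simulated for CD and WT endothelium. That simulation gave all genes 1 shared spread and changed only genes above a minimum count.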

Other observations

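Ttr, a carrier protein of choroid plexus and liver, had 106.7 CPM in the members of WT replicate 1 and 0 UMIs in CD and in WT replicate 2, with 594 of 617 UMIs in 1 barcode. It was the largest gap between the WT libraries among the 2859 genes compared, and the other barcodes of WT replicate 1 had 121 CPM, against 0.0513 CPM in CD and 0.204 CPM in WT replicate 2. Oc90, the main otolith matrix protein of the otic epithelium, had 0.412 CPM in CD members and 6.75 and 27.8 CPM in WT members, a difference of -5.30 (SE 1.05) with an edgeR adjusted p of 0.119. The Oc90 UMIs were spread thinly, over 2 CD members and 34 and 101 WT members, with at most 7 in any member. In the other barcodes the 14 otic epithelium markers summed to 840 CPM in CD, with 1289 and 1542 CPM in WT. Whether the Oc90 counts in members are free RNA of the epithelium was not tested. Vwa1, a matrix protein leading sub-clusters 1 and 2, had 73.9 CPM in CD members, and 119 and 50.4 CPM in members of the WT replicates, so the WT libraries lay on either side of CD.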
